A study of Mus musculus with 8 samples.

Results

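Skeletal myogenic genes were examined in embryonic fibroblasts of the mouse (MEFs), cells that make connective tissue, with the question of whether the amount of muscle-lineage RNA differed between cultures. The set had 10 named genes, Myod1, Myog, Myf5, Pax7, Chrna1, Acta1, Actc1, Myh3, Mymk and Tnnt3. They were found by the gene IDs of their symbols among 19493 endogenous genes in the raw count table, and 7 of the 10 had a row. Myod1, Myf5 and Pax7 were not analysed here. RNAseq covered 4 wild-type (WT) and 4 Dp1Tyb libraries from E14.5 embryos of a strain labelled C57BL/6J.129P2 and backcrossed to C57BL/6JNimr. Dp1Tyb cells have the duplication Dp(16Lipi-Zbtb21)1TybEmcf and carry 3 copies of the chromosome 16 stretch from Lipi to Zbtb21, and WT cells carry 2. All cultures received the same medium, 10% foetal bovine serum and no treatment, and ERCC spike-ins, synthetic RNAs of known amount, were added to the cells of every culture before extraction. None of the 7 genes lies on chromosome 16. MEFs are made from minced embryos without head and inner organs, so a culture is a mixed population and can hold cells of the muscle lineage.

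Skeletal muscle arises when progenitors marked by Pax7 switch on the transcription factors Myf5, Myod1 and then Myog, which bind E-box sequences in muscle promoters. Myoblasts then leave the cell cycle, fuse with the help of Mymk, and build sarcomeres from thick filaments of myosin and thin filaments of actin and troponin. Embryonic muscle uses its own forms of several of these proteins. Some of them, the actins above all, are also made outside skeletal muscle, in heart and smooth muscle and in contractile fibroblasts.

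The 250 bases before the RefSeq start of transcription (assembly GRCm38.p6) are shown for Chrna1, Acta1 and Actc1, the members with a match to a muscle motif. Capitals mark E-boxes of the forms CAGCTG and CAGGTG, the latter also read as CACCTG, searched on both strands, and the CArG box, the motif bound by serum response factor. The Chrna1 window is chr2:73580339-73580588, the Acta1 window chr8:123894776-123895025 and the Actc1 window chr2:114052876-114053125, all on the minus strand and printed 5′ to 3′.
Chrna1: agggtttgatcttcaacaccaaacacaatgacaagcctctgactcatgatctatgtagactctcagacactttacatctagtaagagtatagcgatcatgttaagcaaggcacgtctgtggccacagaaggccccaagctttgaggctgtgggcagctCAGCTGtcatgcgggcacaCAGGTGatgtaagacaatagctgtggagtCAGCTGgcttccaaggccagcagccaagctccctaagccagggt
Acta1: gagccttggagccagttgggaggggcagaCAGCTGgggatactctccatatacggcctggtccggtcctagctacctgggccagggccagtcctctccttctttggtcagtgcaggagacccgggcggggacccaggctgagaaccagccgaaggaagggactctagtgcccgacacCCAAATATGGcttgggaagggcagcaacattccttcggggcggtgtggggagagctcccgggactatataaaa
Actc1: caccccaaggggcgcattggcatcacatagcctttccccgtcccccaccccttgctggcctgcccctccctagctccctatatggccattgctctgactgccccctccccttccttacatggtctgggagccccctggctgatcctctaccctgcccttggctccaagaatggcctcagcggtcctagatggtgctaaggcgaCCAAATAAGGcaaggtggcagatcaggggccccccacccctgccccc

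The Chrna1 window held 3 such E-boxes, at 92, 73 and 44 bases before the start. Of 32851 promoter windows of this length, 0.9% held 3 or more and 27.7% held at least 1. Acta1 had 1 E-box at 221 bases and 1 CArG box at 73 bases, and Actc1 had no E-box of these forms and 1 CArG box at 47 bases, a motif found in 1.5% of windows. The windows of Myog and Myh3 held neither motif, which says only that these letters do not occur there. A window was found for 5 of the 7 genes with a row, and those for Mymk and Tnnt3 were not analysed here. A match describes the sequence and is not a measured binding site.

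The cultures had the profile of fibroblasts. Fn1, Col1a1 and Vim stood at a mean of 867, 825 and 771 RPKM (counts scaled to library size and exon length), and all 15 fibroblast markers had a row. Total counts per library ran from 17698900 to 26471758. Between libraries of the same genotype the chi-square per degree of freedom over genes was 10.4 to 95.7, far above counting noise. Dp1Tyb replicate 2 and WT replicate 3 held the least endogenous RNA per spike-in and Dp1Tyb replicate 4 the most, with ratios of 0.688, 0.713 and 1.31. Levels are given as relative CPM, library-size scaled counts with factors from the endogenous genes, and the tests are given also with spike-in scaling, which refers each gene to the cells sampled.

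Compared per length, the members lay between percentiles 3.81 and 55.6 of the tested genes, and only Acta1 was above the middle. Acta1 was highest with 4.83 ± 3.89 RPKM (SD over 8 libraries), then Chrna1 with 2.28 ± 1.0, Tnnt3 with 1.51 ± 0.506, Actc1 with 1.1 ± 0.6, Myh3 with 0.674 ± 0.445, Mymk with 0.201 ± 0.251 and Myog with 0.184 ± 0.185. Neighbours in this order were compared within libraries by an exact two-sided sign-flip permutation test, added after the data had been seen, in which 0.00781 is the smallest possible p. The order came from the same 8 libraries, and the p-values are not adjusted. Error in the exon lengths used is not part of the spread they measure. Actc1 exceeded Myh3, and Myh3 exceeded Mymk, in 8 of 8 libraries (permutation p = 0.00781 each), and Tnnt3 exceeded Actc1 in 7 of 8 (permutation p = 0.0234). Acta1 and Chrna1 (permutation p = 0.461), Chrna1 and Tnnt3 (p = 0.172) and Mymk and Myog (p = 0.75) did not differ beyond the spread between libraries.

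No member passed the test across all genes between Dp1Tyb and WT cultures. Myog and Mymk, with 43 and 46 counts summed over the 8 libraries, fell below the filter on low counts, and 5 members were tested. With relative scaling, edgeR's quasi-likelihood test called 0 of 5 members at a Benjamini-Hochberg adjusted p under 0.05, with 1 at an unadjusted p under 0.05, and called 0.0182% of all 16470 tested genes. With spike-in scaling it called 0 of 5, with 3 at an unadjusted p under 0.05, and 0.0121% of all tested genes. Over all tested genes, 287 were higher and 416 lower in Dp1Tyb at an unadjusted p under 0.05 with relative scaling, and 140 were higher and 52 lower with spike-in scaling. The libraries of the 2 genotypes overlapped for each of the 7 members under both scalings, where 3.16% of tested genes had groups that did not overlap under relative scaling and 0.425% under spike-in scaling. DESeq2 and limma-voom also called 0 members. Fitted log2[fold change] values were nevertheless above 0 for 4 of the 5 tested members with relative scaling (median 0.81, against 0.01 over all tested genes, of which 8430 were above 0) and for 5 of 5 with spike-in scaling (median 0.94, against 0.11, with 11598 of all tested genes above 0). Leaving out Dp1Tyb replicate 2 lowered the relative median of the 5 members to 0.49.

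**Figure D1:**
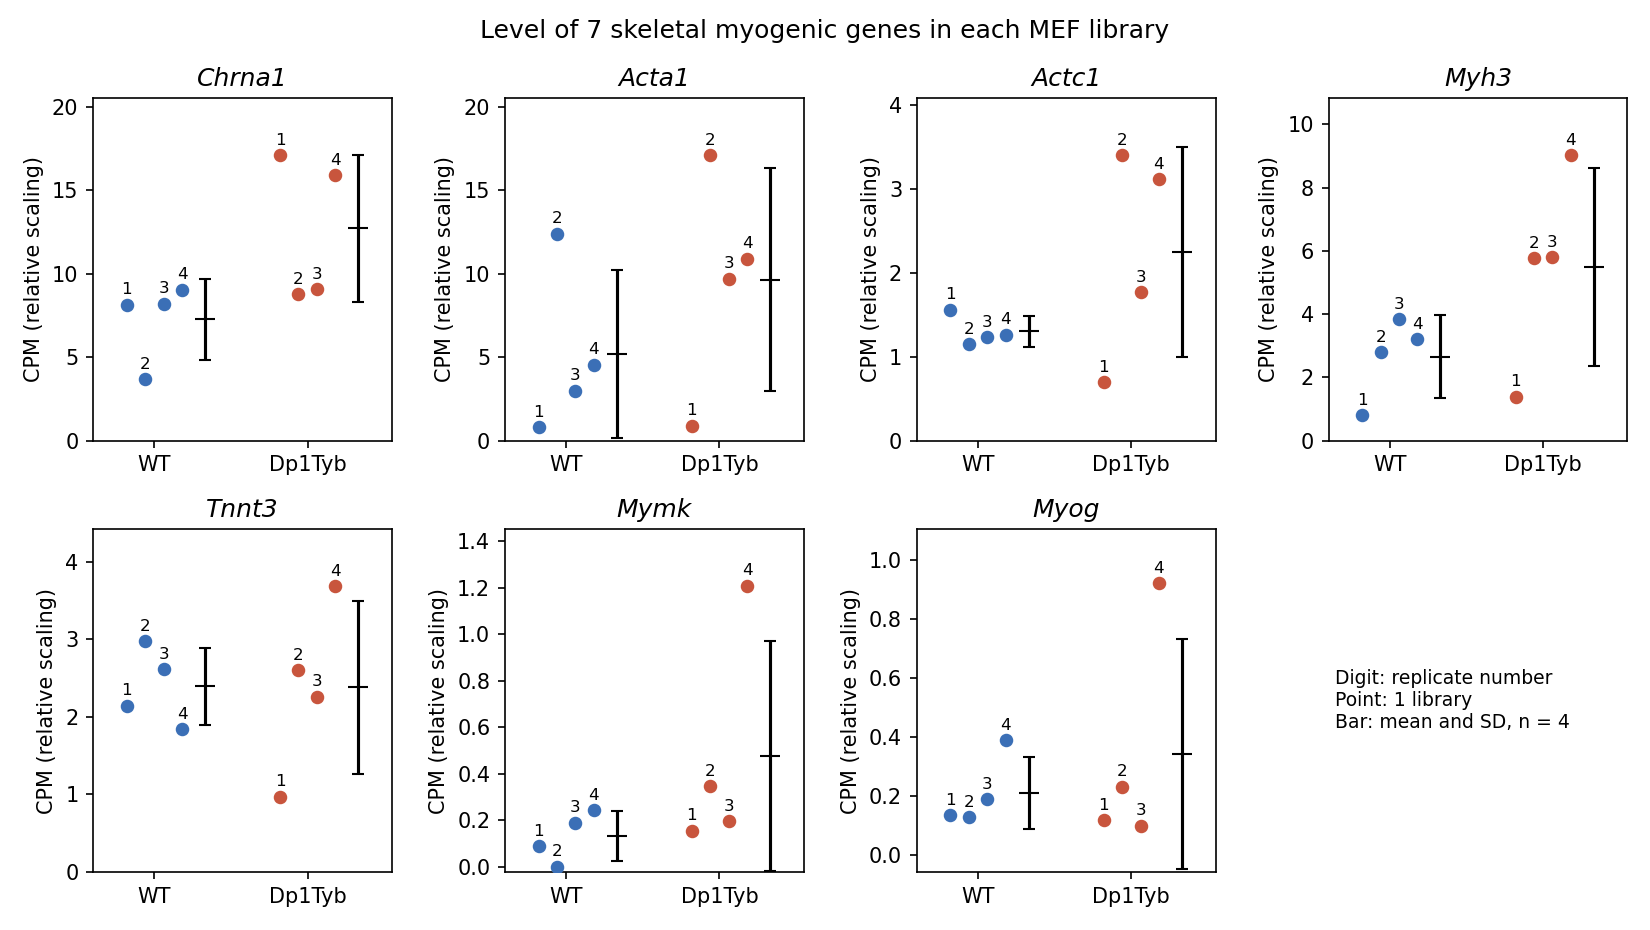
Relative CPM of 7 skeletal myogenic genes in each library, with the replicate number beside each point and the mean and SD of each genotype (n = 4) as a black bar. WT and Dp1Tyb libraries overlap for every gene, and Dp1Tyb replicate 4 is the highest library for Myh3, Tnnt3, Mymk and Myog.

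Myog, the factor that starts terminal differentiation (chr1:134289989-134292548, plus strand, GRCm38), was counted 3, 3, 4 and 8 times in WT replicates 1 to 4 and 3, 4, 2 and 16 times in the Dp1Tyb replicates. It thus lay at or near the limit of detection, taken as 3 counts per library, except in Dp1Tyb replicate 4 and, less so, WT replicate 4. The WT mean of 0.21 ± 0.122 relative CPM and the Dp1Tyb mean of 0.341 ± 0.391 (SD, n = 4) were compared by an exact two-sided permutation test over the 70 assignments of libraries, whose smallest p is 0.0286, with p = 0.743. Without Dp1Tyb replicate 4 the difference on the log2(CPM + 0.5) scale changed from 0.16 to -0.12.

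Mymk, the membrane protein of myoblast fusion (chr2:27061636-27072179, minus strand), was counted 2, 0, 4 and 5 times in WT and 4, 6, 4 and 21 times in Dp1Tyb. The same Dp1Tyb library was again the highest, and WT replicate 2 had no count, which allows up to 0.127 relative CPM by counting error alone. The group means were 0.13 ± 0.108 and 0.476 ± 0.495 relative CPM (SD, n = 4; exact permutation p = 0.143). The difference in log2(CPM + 0.5) was 0.53 with all libraries and 0.22 without Dp1Tyb replicate 4. At counts this low the scale sets the size. The edgeR fit without a filter on low counts gave a log2[fold change] of 1.81 with relative and 2.01 with spike-in scaling (adjusted p = 1.00 for both). Without that filter, 4 of 7 members had an unadjusted edgeR p under 0.05 with spike-in scaling and 1 of 7 with relative scaling. The share of all genes at that level without the filter was not worked out, so these counts are no result about the members.

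Chrna1, the alpha subunit of the muscle acetylcholine receptor (chr2:73563215-73580338, minus strand), had 8.13, 3.69, 8.2 and 9.03 relative CPM in WT and 17.1, 8.77, 9.06 and 15.9 in Dp1Tyb. Dp1Tyb replicates 1 and 4 lay well above all other libraries, and WT replicate 2 lay below all others. The means were 7.26 ± 2.42 and 12.7 ± 4.43 (SD, n = 4). The fitted log2[fold change] was 0.81 (SE 0.32, edgeR p = 0.0283, adjusted p = 0.999), and the exact permutation test gave p = 0.0571. With spike-in scaling the fold change was 0.96 (SE 0.37, edgeR p = 0.00841, adjusted p = 1.00), and the exact permutation p was 0.2. Without Dp1Tyb replicate 2 the relative difference in log2 level was 0.92 and the exact permutation p 0.0286, and without WT replicate 2 it was 0.5 with p = 0.2.

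Acta1, skeletal muscle alpha-actin (chr8:123891769-123894751, minus strand), had the widest range of the 5 tested members. Relative CPM was 0.804, 12.4, 2.98 and 4.56 in WT and 0.889, 17.1, 9.7 and 10.9 in Dp1Tyb, a 21.2-fold range over the 8 libraries. Replicate 1 of each genotype was near the bottom and replicate 2 of each was at the top, so the range within WT alone spanned most of that between all libraries. The means were 5.2 ± 5.06 and 9.63 ± 6.67 (SD, n = 4; exact permutation p = 0.486). The fitted log2[fold change] was 0.88 (SE 0.83, edgeR adjusted p = 0.999) with relative scaling and 0.94 (SE 0.39, edgeR adjusted p = 1.00, unadjusted 0.0162) with spike-in scaling. The exact permutation p with spike-in scaling was 0.314. The relative fold change was 0.44 without Dp1Tyb replicate 2, 0.52 without WT replicate 1 and 1.8 without WT replicate 2. In the spike-in fit edgeR found no gene-specific spread and gave every gene the spread of the trend over all genes, whereas the SE with relative scaling follows the gene's own libraries more closely.

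Actc1, cardiac alpha-actin, the actin of the embryonic heart that young skeletal muscle also makes (chr2:114047282-114053548, minus strand), had 1.56, 1.15, 1.23 and 1.26 relative CPM in WT and 0.696, 3.4, 1.77 and 3.11 in Dp1Tyb. The WT libraries lay close together, while the Dp1Tyb group held both the lowest library and the 3 highest. The means were 1.3 ± 0.182 and 2.24 ± 1.25 (SD, n = 4; exact permutation p = 0.314), with a fitted log2[fold change] of 0.76 (SE 0.43, edgeR adjusted p = 0.999). Without Dp1Tyb replicate 1 the 3 remaining Dp1Tyb libraries were above all 4 WT libraries, and the difference in log2 level rose from 0.47 to 0.82 (exact permutation p = 0.0286 of 35 assignments, the smallest possible). It fell to 0.25 without Dp1Tyb replicate 2 and to 0.29 without Dp1Tyb replicate 4 (exact permutation p = 0.6 for each).

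Myh3, the embryonic myosin heavy chain (chr11:67078300-67102291, plus strand), had 0.804, 2.8, 3.84 and 3.2 relative CPM in WT and 1.39, 5.77, 5.81 and 9.03 in Dp1Tyb. Dp1Tyb replicates 2 to 4 exceeded every WT library, and Dp1Tyb replicate 1 lay below 3 of the 4. The means were 2.66 ± 1.31 and 5.5 ± 3.14 (SD, n = 4; exact permutation p = 0.286). The fitted log2[fold change] was 1.04 (SE 0.55, edgeR p = 0.0894, adjusted p = 0.999) with relative and 1.24 (SE 0.42, edgeR p = 0.00349, adjusted p = 1.00) with spike-in scaling, where the exact permutation p was 0.171. Without Dp1Tyb replicate 4 these fold changes were 0.69 and 0.66. No member had an unadjusted edgeR p under 0.05 in either scaling once that library was left out.

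Tnnt3, troponin T of fast skeletal muscle (chr7:142498836-142516009, plus strand), had 2.14, 2.97, 2.61 and 1.84 relative CPM in WT and 0.967, 2.6, 2.26 and 3.68 in Dp1Tyb. The 4 WT libraries fell inside the range of the Dp1Tyb libraries, whose ends were replicates 1 and 4. The means were 2.39 ± 0.497 and 2.38 ± 1.12 (SD, n = 4), a difference of -0.09 in log2 level. In 58 of 70 assignments of the exact permutation test the difference was at least as large, as it was in 70 of 70 with spike-in scaling. The fitted log2[fold change] was -0.03 (SE 0.36) with relative and 0.13 (SE 0.45) with spike-in scaling.

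Other annotated genes overlap Acta1, Actc1 and Tnnt3 on the opposite strand (Gm20388, A530058N18Rik and Prr33), and the strand option of the counting is not stated. Stretches of 100 bases shared exactly with another gene made up 1.13% of Myh3 transcripts, shared with Myh13, and 0.07% of Chrna1 transcripts. They were absent from the other 5 members.

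Summed over the 7 members, the level was 13.7 to 23.2 relative CPM in WT and 21.3 to 44.8 in Dp1Tyb. With spike-in scaling the sums were 13.7 to 24.0 and 25.7 to 58.8, which do not overlap. This sum over chosen genes is a description and was not tested. Acta1 and Chrna1 made up most of both sums. Over the other 5 members the sums were 5.62 to 8.12 in WT and 4.01 to 23.6 in Dp1Tyb with spike-in scaling, and the Dp1Tyb group then held both the lowest library, replicate 1, and the highest, replicate 4. In bulk RNA, fewer cells of a type and less RNA per cell cannot be told apart.

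The wider list of skeletal muscle genes had 98 symbols, of which 78 had a row and 55 were tested. None was called by edgeR under either scaling. At an unadjusted p under 0.05 there were 2 higher and 2 lower in Dp1Tyb with relative scaling, and 2 higher and 0 lower with spike-in scaling, beside 287 higher and 416 lower and 140 higher and 52 lower of the 16470 tested genes. DESeq2 called 0 as well. The median log2[fold change] was 0.22 with relative and 0.29 with spike-in scaling, beside 0.01 and 0.11 over all tested genes. Single libraries moved these values. The median was lowest without Dp1Tyb replicate 4, at 0.06 with relative and 0.03 with spike-in scaling. It was highest at 0.35 without Dp1Tyb replicate 1 with relative scaling, and at 0.45 without WT replicate 1 or Dp1Tyb replicate 2 with spike-in scaling. The genes at an unadjusted p under 0.05 became 11 of 59 without Dp1Tyb replicate 1 with relative scaling (5.53% of all tested genes) and 11 of 58 without Dp1Tyb replicate 2 with spike-in scaling (3.21%). Without WT replicate 3 they were 0 of 58 with either scaling, beside 2.63% and 0.718% of all tested genes.

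By role, the fitted values of the wider list were as follows, with no test of the difference between roles. Of 9 tested thick filament genes 8 were above 0, with a median log2[fold change] of 0.51 with relative scaling, and of 5 thin filament genes 5 were, with a median of 0.58. Among the Z-disc and scaffold genes, which anchor the filaments, 8 of 11 were above 0 with a median of 0.36. The genes of progenitors and fusion gave 4 of 5 with a median of 0.39. Of 9 tested regulators, which include the Mef2 and Eya factors, 1 was above 0 with a median of -0.13, and the 5 tested genes of muscle metabolism had a median of -0.3 with 1 above 0. The regulators had no settled direction, with 4 of 9 above 0 and a median of -0.02 under spike-in scaling, and 5 of 9 and a median of 0.01 under relative scaling without WT replicate 4. Calcium and excitation genes had a median of 0.02 with 5 of 9 above 0, and the 2 tested receptor and synapse genes had a median of 0.01. Leaving out 1 library at a time, the relative median ran from 0.29 to 0.68 for thick filament and from 0.15 to 0.8 for thin filament genes, lowest without Dp1Tyb replicate 4 and highest without Dp1Tyb replicate 1. That of the Z-disc genes ran from 0.04 without Dp1Tyb replicate 3, with 6 of 11 above 0, to 0.6 without Dp1Tyb replicate 1. The calcium genes ran from -0.07 without Dp1Tyb replicate 3 to 0.37 without WT replicate 1. The metabolism genes ran from -0.38 without Dp1Tyb replicate 3 to -0.17 without Dp1Tyb replicate 1. With spike-in scaling the metabolism median was -0.2, and it became 0.04 with 3 of 5 above 0 without Dp1Tyb replicate 2. Progenitor and fusion genes ran from 0.29 to 0.47, and receptor and synapse genes from -0.15 to 0.15.

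The genes with the highest RPKM in each role were named by a fixed rule of level. Among the regulators these included Mef2d with 20.6 RPKM, Fst, an inhibitor of myostatin, with 17.0 and Mef2a with 12.6. All 3 are also expressed outside muscle. With relative scaling the log2[fold change] was -0.29 (SE 0.25) for Fst and -0.13 (SE 0.21) for Mef2d, and Mef2a stood at 186.0 ± 35.4 relative CPM for WT and 185.0 ± 44.1 for Dp1Tyb. Of the progenitor and fusion genes, Megf10, a receptor of satellite cells, stood at 92.1 ± 49.4 relative CPM for WT and 120.0 ± 29.6 for Dp1Tyb (SD, n = 4). The growth factor receptor Met stood at 43.0 ± 2.58 and 42.6 ± 3.83, the integrin subunit Itga7 at 26.4 ± 1.68 and 33.9 ± 5.75, and Heyl, a target of Notch, at 3.69 ± 2.74 and 5.55 ± 3.05. Each of these 4 genes had overlapping groups.

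Chrnb1, the beta subunit that pairs with Chrna1 in the receptor, had 9.34 ± 2.11 relative CPM for WT and 10.3 ± 1.96 for Dp1Tyb (SD, n = 4) and a log2[fold change] of 0.15 (SE 0.21). The other genes of the receptor and its synapse were low, with 0.242 RPKM for the clustering protein Rapsn, 0.126 for the kinase Musk and 0.103 for the foetal subunit Chrng. In the thin filament, Tnnc1, the calcium-binding troponin, had a log2[fold change] of 0.58 (SE 0.28), the troponins Tnnt2 and Tnnt1 0.59 (SE 0.41) and 0.62 (SE 0.43), and Tnni1 0.49 (SE 0.53). In the thick filament, the light chains Myl1 and Myl4 had 0.84 (SE 0.53) and 0.15 (SE 0.49). Des, the intermediate filament around the Z-disc, was the highest gene of its group at 4.03 RPKM, with 8.4, 24.3, 7.44 and 5.34 relative CPM in WT and 3.21, 30.3, 22.9 and 19.1 in Dp1Tyb. Its high libraries were those of Acta1. Klhl41 and Hspb7 had log2[fold change] values of -0.12 (SE 0.22) and 0.38 (SE 0.70). The junctional proteins Jph1 and Jph2 and the calcium-binding Srl stood at 2.31, 2.19 and 0.833 RPKM. Of the metabolic enzymes, the enolase Eno3 had a log2[fold change] of -0.37 (SE 0.22), and the phosphorylase Pygm one of -0.30 (SE 0.34). Pgam2 stood at 1.95 ± 0.51 and 1.93 ± 0.636 relative CPM, and Cox6a2 was below the filter. None of these genes was called under either scaling.

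**Figure D2:**
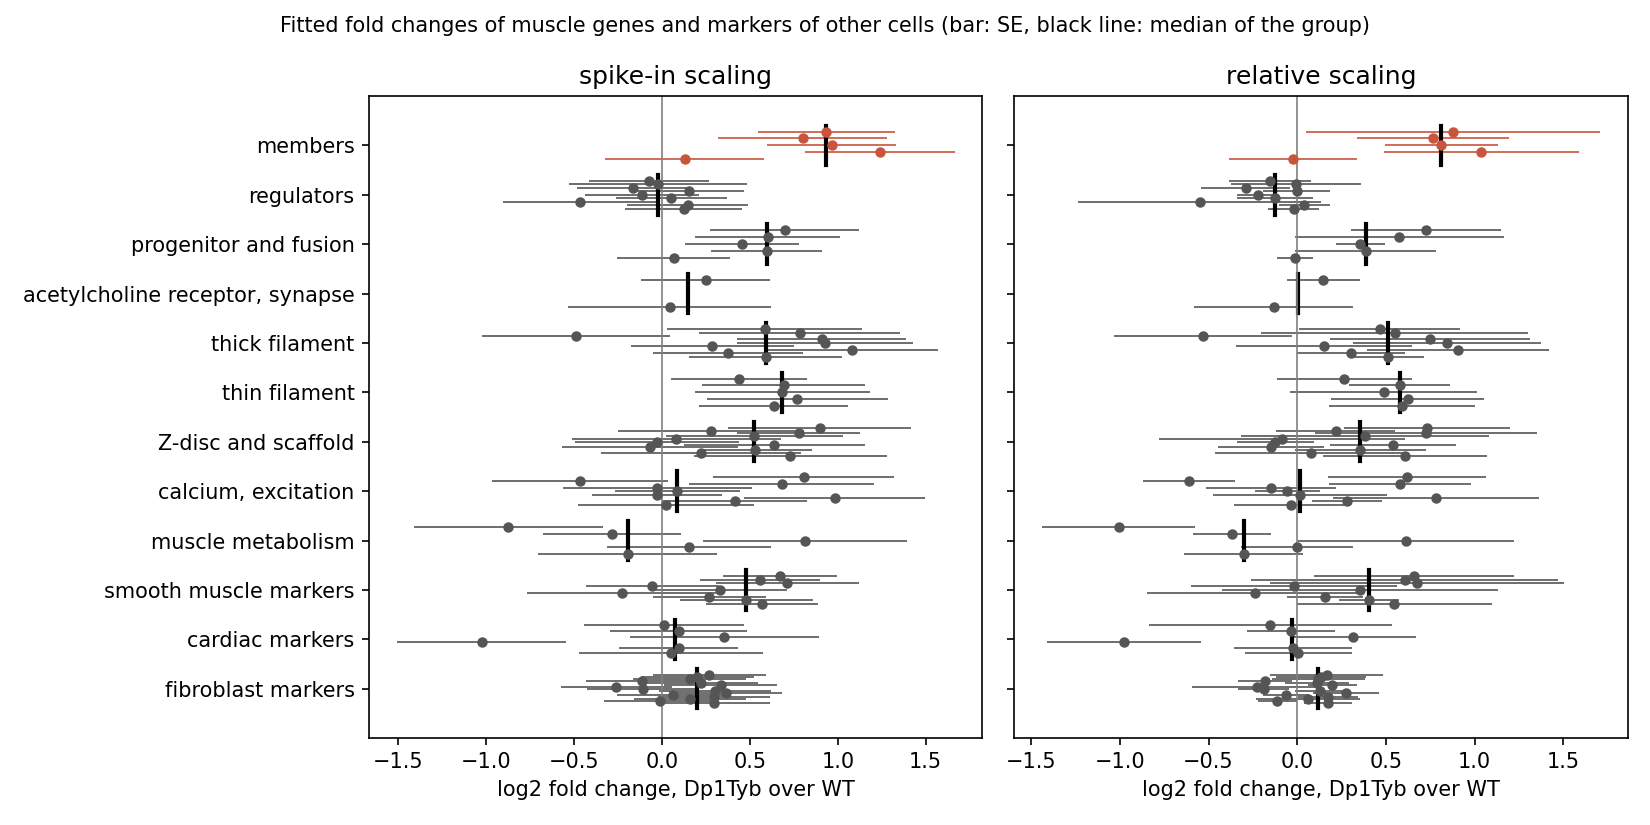
Fitted log2 fold change of Dp1Tyb over WT with its SE for each tested member, for the wider muscle list by role and for 3 marker lists of other cells, with spike-in scaling (left) and relative scaling (right). Each point is 1 gene and the black line is the median of its group. The member median is 0.94 with spike-in and 0.81 with relative scaling, the medians of regulators are -0.02 and -0.13, and no gene shown was called.

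Single genes of the wider list had an unadjusted edgeR p under 0.05, Mylpf and Des with spike-in scaling and Itga7, Myom2, Casq1 and the deaminase Ampd1, named for its p alone, with relative scaling. Mylpf, a fast myosin light chain, had 0.581, 0.976, 1.66 and 1.26 relative CPM in WT and 0.503, 2.25, 2.46 and 3.28 in Dp1Tyb, with a log2[fold change] of 0.91 under relative scaling (SE 0.51, edgeR adjusted p = 0.999). Its order of libraries was close to that of Myh3. Myom2, an M-band protein, was the one muscle gene whose 4 Dp1Tyb libraries all exceeded the 4 of WT under relative scaling, at 3.21 to 4.49 against 1.99 to 2.99 relative CPM and a log2[fold change] of 0.51 (SE 0.20, edgeR adjusted p = 0.999). Casq1, the calcium buffer of the sarcoplasmic reticulum, was the one whose Dp1Tyb libraries all lay below, at 0.75 to 1.27 against 1.34 to 1.65 and a log2[fold change] of -0.61 (SE 0.26, edgeR adjusted p = 0.999). These were 2 of the 55 tested genes of the list, a share near the 3.16% of all tested genes, and so no result about the list. With spike-in scaling no muscle gene had groups that did not overlap.

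Single libraries stood out among the muscle genes, less uniformly among the members. The highest library was Dp1Tyb replicate 4 for 4 of the 7 members, Dp1Tyb replicate 2 for 2 and Dp1Tyb replicate 1 for 1. The lowest was Dp1Tyb replicate 1, WT replicate 1 and WT replicate 2 for 2 each, and Dp1Tyb replicate 3 for 1. Among 51 sarcomere and calcium genes with a row, of which 34 were tested, Dp1Tyb replicate 4 was the highest library for 26. Dp1Tyb replicate 1 was the lowest for 22. Over all tested genes Dp1Tyb replicate 4 was the highest for 7.47% and Dp1Tyb replicate 1 the lowest for 18.6%. These shares leave out genes below the filter on low counts, which the 51 include. Myh8 and Ryr1 are given as examples chosen after their values were seen. Ttn, the giant spring protein of the sarcomere, had 25.2, 31.8, 44.9 and 51.6 relative CPM in WT and 22.3, 43.6, 43.7 and 87.2 in Dp1Tyb. Myh8, the perinatal myosin, ran from 0.503 in Dp1Tyb replicate 1 to 4.49 in Dp1Tyb replicate 4, and Ryr1, the calcium release channel, was 2.7 in that library and 0.223 to 1.44 in the others.

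**Figure D3:**
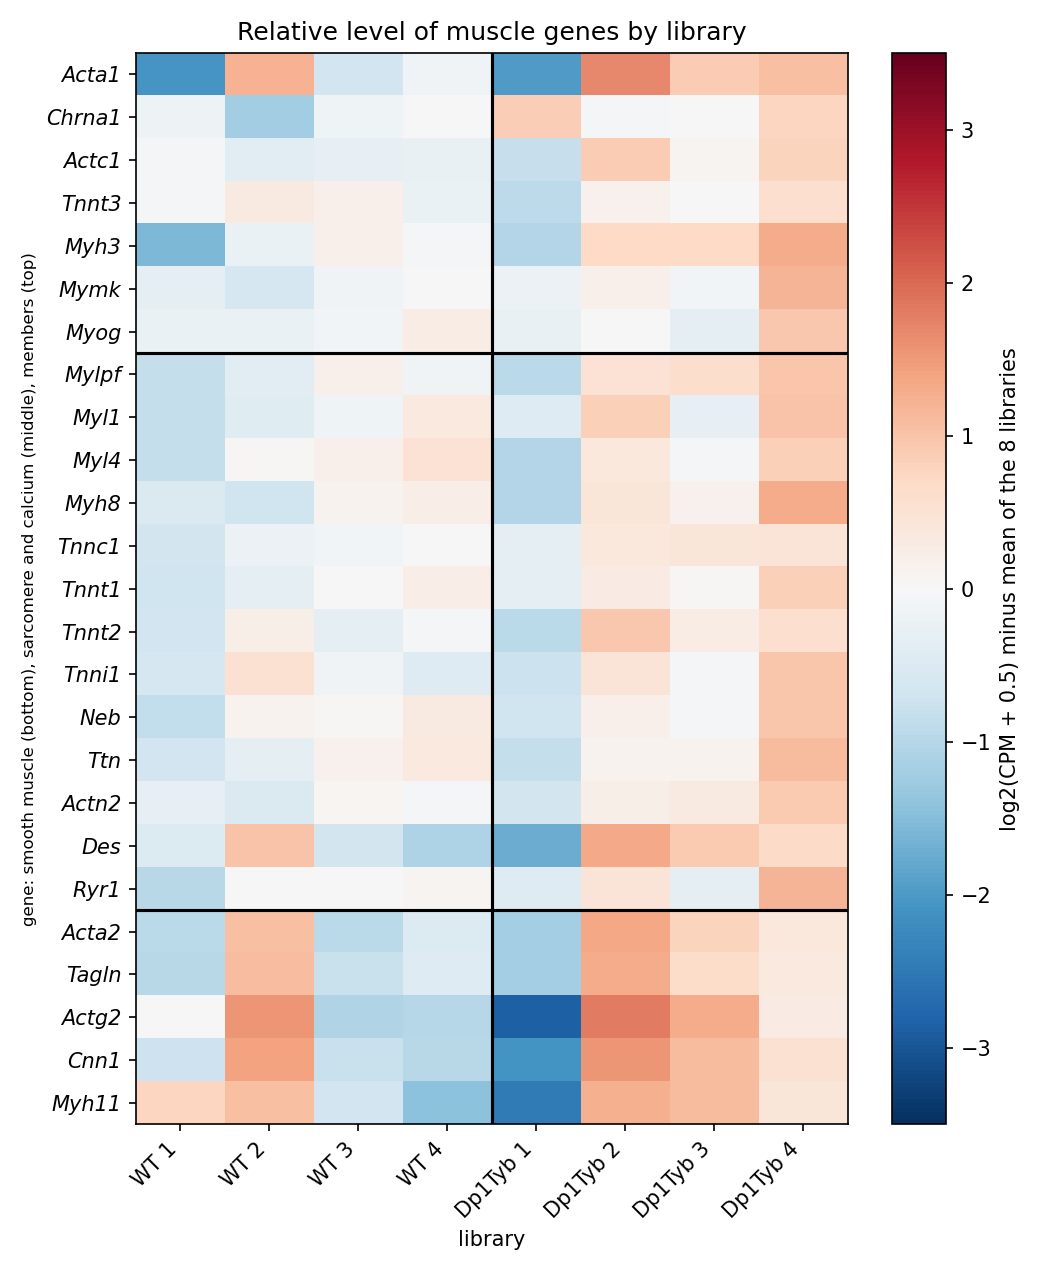
Deviation of each gene's log2(CPM + 0.5) from its mean over the 8 libraries, with relative scaling, for the members (top), 13 sarcomere and calcium genes (middle) and 5 smooth muscle genes (bottom). The column of Dp1Tyb replicate 4 is above the mean for the genes in the middle block and that of Dp1Tyb replicate 1 below it, while the smooth muscle genes and Acta1 are high in replicate 2 of both genotypes. The 13 genes were picked by hand from 51 with a row, and not all of them follow the fixed rule of level. Genes left out include Casq1, Klhl41 and Jph1 (relative log2 fold change -0.61, -0.12 and -0.06) and Myom2 (0.51). Of these 51, Dp1Tyb replicate 4 was the highest library for 26 and the lowest for 3.

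The members did not all follow the same libraries. Smooth muscle markers, which contractile fibroblasts also express, summed to 633 to 2380 relative CPM in WT and 518 to 2870 in Dp1Tyb over 9 of 9 genes, none of them called. Acta2, smooth muscle actin, had 387, 1550, 387 and 531 relative CPM in WT and 330, 1920, 1280 and 968 in Dp1Tyb, with the same 4 libraries highest as for Acta1. For each member, the log2 level was set against 2 indices defined after the data had been seen, the mean log2 level of the 9 smooth muscle markers and that of 25 sarcomere genes of the wider list. This gave 14 relations over 8 libraries, with exact permutation tests and Benjamini-Hochberg adjustment. Both sides of each relation come from the same library and scaling.

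Myh3 followed the sarcomere index (r = 0.93, exact permutation p = 0.000843, adjusted 0.0118; rho = 0.95, p = 0.00114, adjusted 0.016), and r was 0.95 without Dp1Tyb replicates 1 and 4. Its relation to smooth muscle was r = 0.51 (exact permutation p = 0.201, adjusted 0.255; rho = 0.4, p = 0.327). For Acta1 both relations passed by r and neither by rho after adjustment. Smooth muscle gave r = 0.83 (exact permutation p = 0.0134, adjusted 0.047) and rho = 0.83 (p = 0.0154, adjusted 0.0718). The sarcomere gave r = 0.82 (exact permutation p = 0.0128, adjusted 0.047) and rho = 0.67 (p = 0.0831, adjusted 0.224). Without the 2 libraries farthest from the median of the index the values of r became 0.67 and 0.8. For Actc1 the sarcomere index passed by r (r = 0.86, exact permutation p = 0.00712, adjusted 0.047) but not by rho (rho = 0.81, p = 0.0218, adjusted 0.0762). Without those 2 libraries r was 0.66. Neither relation of Chrna1 passed, with r = 0.06 for the sarcomere (exact permutation p = 0.909; rho = 0.19, p = 0.665) and r = -0.53 for smooth muscle (p = 0.172; rho = -0.36, p = 0.389). Taken as deviations from the group means, the values of Chrna1 and the smooth muscle index gave r = -0.86, which was not tested. Actc1 and smooth muscle gave r = 0.66 (exact permutation p = 0.0771, adjusted 0.127; rho = 0.62, p = 0.115). The relations of Tnnt3, Mymk and Myog had adjusted p of 0.053 or more.

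**Figure D4:**
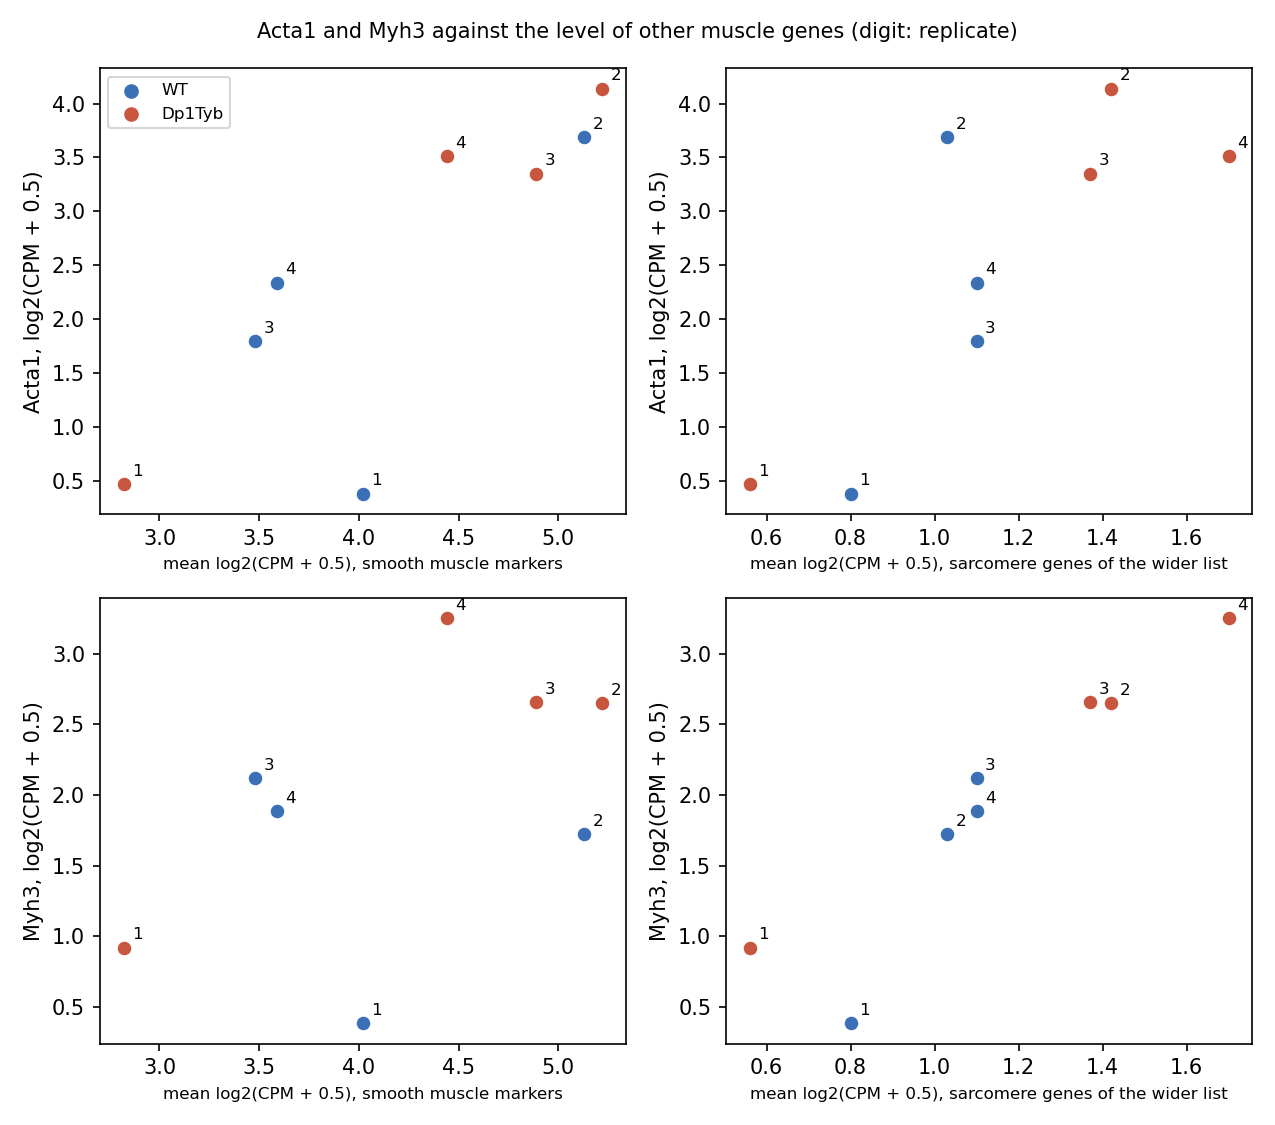
Log2 level of Acta1 (top) and Myh3 (bottom) in 8 libraries against the mean log2 level of smooth muscle markers (left) and of sarcomere genes (right), both with relative scaling and a pseudocount of 0.5. Myh3 rises with the sarcomere genes (r = 0.93), and Acta1 is lowest in replicate 1 of both genotypes and highest in replicate 2 of both.

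Markers of other cells that such cultures could hold were read beside the members. The 15 fibroblast markers had a median log2[fold change] of 0.12 and the 9 smooth muscle markers one of 0.4 with relative scaling. Leaving out 1 library at a time, the fibroblast median ran from 0 without Dp1Tyb replicate 2 to 0.18 without WT replicate 2, and the smooth muscle median from 0.15 to 0.81 without the same 2 libraries. Of the markers of all other cell types together, these lists included, 0 of 49 tested were called under either scaling, with 4 at an unadjusted p under 0.05 with relative and 2 with spike-in scaling, beside 4.27% and 1.17% of all tested genes. With relative scaling these were 12 of 51 without WT replicate 2 (5.52% of all tested genes) and 0 of 51 without WT replicate 4 (3.99%) or Dp1Tyb replicate 3 (3.45%). Cartilage markers had a median of -0.29, led by Col11a1 and Sox9 at 23.2 and 18.9 RPKM, Schwann and neural markers one of -0.46, led by Gap43 and Tubb3 at 34.7 and 13.4 RPKM, and keratinocyte markers one of 0.08, led by Krt18 at 3.61 RPKM and then Krt14. With spike-in scaling these medians were -0.07, -0.38 and 0.21. They moved with single libraries, to 0.16 for cartilage (spike-in scaling) without Dp1Tyb replicate 2, -0.05 for Schwann and neural markers (spike-in scaling) without WT replicate 1 and 0.45 for keratinocyte markers (relative scaling) without WT replicate 2. Heart muscle markers had a median of -0.03 with relative scaling, which became 0.19 without WT replicate 1 and -0.2 without WT replicate 2. They were led by Tbx5 and Hand2 at 3.9 and 2.6 RPKM, and summed to 16.7 to 61.7 CPM in WT and 16.1 to 42.1 in Dp1Tyb with spike-in scaling, over 9 of 10 genes. Myh6, the atrial myosin, and Myl7, an atrial light chain, were named after their values were seen. Myh6 had 74 counts in WT replicate 1, 54 in Dp1Tyb replicate 2 and at most 1 in each other library. Myl7 had 11 and 8 counts in these 2 libraries. WT replicate 1 was the lowest library for Myh3 and Acta1 and the highest WT library for Actc1, and Dp1Tyb replicate 2 the highest for Acta1 and Actc1. The part of any of these cell types in the members' levels was not tested.

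Across the 8 libraries, the tested genes whose log2 level was most like the mean standardised level of the 5 tested members were Mylpf (Pearson r = 0.952), Paqr7 (0.951), Itga7 (0.931), Kcnk5 (0.931), Praf2 (0.929), Gm17108 (0.927), Cxcr6 (0.924), Ighmbp2 (0.923), Mgam (0.922) and 4833439L19Rik (0.919). These are the highest of 16465 values of r, each over 8 libraries, and no test was made of whether unrelated genes would reach them. Mylpf and Itga7, an integrin of muscle, were the 2 of these 10 on the wider muscle list. Set against single members, Mylpf was the third closest of all genes to Myh3 (r = 0.97). For Acta1 it ranked 1692 (r = 0.77) behind Tagln at 96 (r = 0.95) and Acta2 at 162 (r = 0.94). The closest genes, outside all lists used here, reached r = 0.994 for Myh3 and 0.991 for Acta1. With Myh3, 65 genes had r over 0.9, and with Acta1 408 had.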

How the data were processed

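RNAseq of 4 WT and 4 Dp1Tyb MEF libraries was analysed, with groups and replicate numbers from the sample labels. The labels do not state that each library is a separate embryo, so p-values measure the spread between these libraries. The deposited raw counts per gene were made by the authors with Trim Galore, TopHat2 2.0.12, GRCm38 plus spike-ins and HTSeq, discarding reads with several alignments. The annotation release is not given in the sources used here. The authors' normalised values and DESeq2 1.6.3 table were not used.

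Genes were filtered with filterByExpr (16470 kept) and compared in R 4.3.3 with edgeR 4.0.16 by its two-sided quasi-likelihood test, adjusted over all tested genes. Size factors came from spike-in medians of ratios (spike-in scaling) or TMM (relative scaling). DESeq2 1.42.0, limma 3.58.1, other filters and size factors, a pseudocount of 5, a replicate block and leaving out each library were alternatives, and the scripts were tested on simulated data. Positions, exon lengths and RPKM used GENCODE M21, in which 175 gene IDs had no match. Spread between libraries, above counting error, limits the precision of the tested genes, and the low counts limit that of Myog and Mymk. Counting limits cover counting error only. Members and lists were chosen with earlier results of these data known. The named genes were all members, the 4 highest per role and 2 highest per marker list by RPKM, and the 10 most like the members. Called genes of the wider list would also have been named, and none was called. Vim, Ampd1, Myl7, Myh6, Myh8 and Ryr1 lie outside this rule and were chosen after their values were seen. A gene that this rule selects is not reported here. The markers' alternatives, the indices, likeness to single members and the order of levels were added after the data had been seen.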

Additional observations from a re-analysis of the deposited data

Results flagged for a closer look

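In Dp1Tyb replicate 4, Myog stood at 0.921 relative CPM, apart from the other 3 Dp1Tyb libraries, with a gap to the next of 0.839 of the group's range. In WT replicate 2, Chrna1 stood at 3.69 relative CPM, below the other 3 WT libraries, with a gap of 0.832 of the range. Both gaps exceed Dixon's limit for 4 samples. The rule was applied to 14 groups, 7 members in 2 genotypes, and chance passes about 1 in 20. The Myog value rests on 16 counts.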

How the results depend on the processing

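No member, no gene of the wider muscle list and no marker of another cell type was called under any alternative run counted (0 called in each). The calls of limma-voom were counted for the members only. The count of members at a permutation p under 0.05 stayed 0 with a pseudocount of 5. The fitted fold changes of Chrna1, Acta1, Actc1 and Myh3 stayed above 0 in all settings, from 0.38 (Actc1, spike-in scaling without Dp1Tyb replicate 4) to 1.8 (Acta1, relative scaling without WT replicate 2), and the lowest adjusted p was 0.168. Tnnt3 changed sign. With spike-in scaling its fold change of 0.13 became -0.08 with limma-voom and, leaving out single libraries, lay between -0.36 (Dp1Tyb replicate 4 out) and 0.38. With relative scaling -0.03 became 0.11 or 0.03 when WT replicate 2 or 3 was left out and 0.25 or 0.0 when Dp1Tyb replicate 1 or 3 was, and -0.32 when it was Dp1Tyb replicate 4. The difference in its log2 level, -0.01 with spike-in scaling, became 0.03 with a pseudocount of 5. Leaving out WT replicate 1 or 2 gave 0.04 or 0.05, leaving out Dp1Tyb replicate 1 or 2 gave 0.24 or 0.09, and the lowest value was -0.32. With relative scaling it ran from -0.3 to 0.2, with 0.01 when WT replicate 2 was left out. For Myog the difference ran from -0.12 to 0.29 with relative and from -0.15 to 0.35 with spike-in scaling, both negative values when Dp1Tyb replicate 4 was left out. The difference of Chrna1 was 0.92 with Dp1Tyb replicate 2 left out and that of Actc1 0.82 with Dp1Tyb replicate 1 left out, both then at an exact permutation p of 0.0286. The cause was not tested. Of 348 alternative values 330 were the same, 16 changed direction and 2 moved to the other side of the threshold. The 330 include counts of called genes that stayed 0 and have no direction.

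Same-numbered libraries correlated at -0.03 to 0.605 in their deviations from the group means, over 0.1 in 3 of 4 pairs. WT replicate 3 correlated best with Dp1Tyb replicate 4 (0.358), and since 1 pair stayed under 0.1 the numbers were not taken to pair the libraries. With a replicate block 0 members were called, with adjusted p of 0.19 or more, and Tnnt3 became -0.02 with spike-in scaling. At an unadjusted p under 0.05 there were 3 of 5 members under either scaling, 10 of 55 genes of the wider list with relative and 7 with spike-in scaling, and 7 and 5 of 49 markers of other cell types, beside 9.72% and 3.03% of all tested genes. Of the tested members, 3 of 5 (Chrna1, Acta1 and Myh3) were higher in the Dp1Tyb library in 4 of 4 same-numbered pairs under both scalings. So were 9.63% of all tested genes with relative and 5.75% with spike-in scaling, a description with no test. Mymk, which was below the filter, was also higher in 4 of 4 pairs. Myog and Mymk had few counts, and what size of difference such counts could show was not tested.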
